A study of Mus musculus with 5 samples.

Results

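The 10 genes described here encode the NF-kB transcription factor subunits (Nfkb1, Nfkb2, Rel, Rela, Relb), proteins that restrain or modify them (Nfkbia, Nfkbie, Nfkbiz, Tnfaip3) and the cytokine tumour necrosis factor (Tnf). They were taken by gene symbol, whatever their values, and are 10 of the 32285 genes in the deposited matrices. The study engrafted C57BL/6 mice intravenously with CMM cells, a mouse inv(16) acute myeloid leukaemia marked with green fluorescent protein (GFP). When about 1% of blood cells were GFP+ leukaemia cells, mice received 3 intravenous injections on alternate days. The control group received PBS (1 library, n = 1), and the treated group received CpG-STAT3dODN (4 libraries, n = 4, labelled Decoy 2, Decoy 3, Decoy 5 and Decoy 6), which couples a CpG oligonucleotide, a ligand of the endosomal receptor TLR9, to a DNA decoy that binds the transcription factor STAT3. GFP+c-Kit+ cells were sorted from the spleens, so all groups share the leukaemia, the host strain and the sort, and no library came from mice without leukaemia. Whether the libraries are from different mice is not stated in the labels, and p-values therefore cover library-to-library spread only, which may be technical.

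NF-kB factors are dimers of Rel-family subunits. In resting cells, inhibitor proteins such as the products of Nfkbia and Nfkbie hold them in the cytoplasm, and signals from receptors such as Toll-like and TNF receptors lead to destruction of these inhibitors and entry of the dimers into the nucleus. Nfkbia, Nfkbie, Nfkbiz, Tnfaip3, Nfkb2, Relb, Rel and Tnf are themselves known NF-kB target genes, so their transcripts are often read as a record of pathway activity. In mast cells, macrophages and B cells the pathway is best known for cytokine production, inflammatory responses and survival.

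All 10 genes are annotated as protein coding in GENCODE vM21 (mouse genome build GRCm38). Nfkb1 lies at chr3:135584655-135691547 on the minus strand, Nfkb2 at chr19:46304320-46312385 on the plus strand, and Rel at chr11:23736847-23770970 on the minus strand. Rela lies at chr19:5637483-5648130 (plus), Relb at chr7:19606217-19629438 (minus) and Nfkbia at chr12:55489410-55492647 (minus). Nfkbie lies at chr17:45555703-45563169 (plus), Nfkbiz at chr16:55811375-55838899 (minus), Tnfaip3 at chr10:19000910-19015657 (minus) and Tnf at chr17:35199381-35202007 (minus).

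Promoter sequences are shown because several of these genes carry the binding motif of the factor they encode or regulate, and because members of the group are compared below for how far they vary together. In the RefSeq promoter table (build GRCm38.p6), 7 of the 10 genes were listed, with 10 start sites. The 250 bases before each start were searched on both strands for the kappa-B consensus, the motif bound by NF-kB dimers. It was found before at least 1 start of 5 genes (Nfkb2, Rel, Nfkbia, Nfkbie and Tnfaip3) and not in the windows of Rela and Tnf. Of all 32817 windows of this length in the table, 2379 (7.25%) held a match. A match describes letters in the window, not a bound site, and a window without a match says nothing about other positions. The stretches below are read 5′ to 3′ on the strand of the gene, with the letters that match the motif in capitals. Overlapping matches are shown as 1 capital run.
Nfkb2, chr19:46304688-46304717, plus strand: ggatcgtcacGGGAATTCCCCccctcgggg
Rel, chr11:23771042-23771071, minus strand: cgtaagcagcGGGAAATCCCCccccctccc
Nfkbie, chr17:45555584-45555613, plus strand: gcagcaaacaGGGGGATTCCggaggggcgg
Tnfaip3, chr10:19015516-19015545, minus strand: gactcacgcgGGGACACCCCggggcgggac
Tnfaip3, chr10:19015411-19015432, minus strand: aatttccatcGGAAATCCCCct
Nfkbia, chr12:55492648-55492897, minus strand, the whole 250-base window: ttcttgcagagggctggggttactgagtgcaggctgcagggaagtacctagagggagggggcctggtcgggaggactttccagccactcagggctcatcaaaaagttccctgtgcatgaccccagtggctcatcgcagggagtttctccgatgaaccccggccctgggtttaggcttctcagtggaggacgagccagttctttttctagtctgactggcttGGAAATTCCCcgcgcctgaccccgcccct
The Nfkbia match began 29 bases before the start site, and those of Nfkbie and Rel 106 and 92 bases before theirs. Nfkb2 had a match before each of its 3 listed starts. The first start had 2 separate stretches with a match, 39 and 11 bases before it, and only the first of them is shown.

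The kept cells numbered 16034 in PBS and 6250, 1933, 3607 and 3216 in Decoy 2, Decoy 3, Decoy 5 and Decoy 6, with a median of 14005 to 36505 UMIs (unique molecular identifiers, counted transcripts) per cell. Libraries shared between 1 and 45 cell barcodes with another library, at most 0.695% of a library. Cells were grouped into classes from marker genes, and each class name means resemblance in those markers only. Cells that resembled mast cells and basophils made up 89.3% of the PBS library, 80.4% of Decoy 2, 18.7% of Decoy 3, none of Decoy 5 and 41.9% of Decoy 6. The other named cells resembled macrophages, B, T and plasma cells, neutrophils, granulocyte-monocyte progenitors, erythroid cells and, in small numbers, plasmacytoid dendritic cells. Cells of clusters that the marker rule left unnamed made up 3.51% of PBS, 5.74% of Decoy 2, 2.12% of Decoy 3, none of Decoy 5 and 4.01% of Decoy 6. The sort label was c-Kit+, and Kit reached 45.5 to 53.5 CPM among mast cell and basophil-like cells but at most 10.5 CPM in the B cell-like and 14.0 CPM in the progenitor-like class, so most other classes did not carry the sorted marker at a like level. CPM here means UMIs of a gene per 1e6 UMIs of the class in that library, scaled by the trimmed mean of M values (TMM) unless stated otherwise. A gene is called when edgeR's quasi-likelihood test gave a Benjamini-Hochberg adjusted p under 0.05 over all genes tested in that class. With 1 PBS library, the test takes the spread from the Decoy libraries and assumes that the PBS library varies like them.

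Each of the 10 genes had its own order of levels across classes. These levels are means over the Decoy libraries with at least 50 cells of the class, given as a description without a test. Genes are not compared with each other by level. Nfkb1, the precursor of a DNA-binding subunit, was broadly present. It ranged from 104 CPM ± 10.8 (SD, n = 4) in the macrophage-like class through 101 ± 6.59 (n = 3) among mast cell and basophil-like cells to 18.6 ± 1.86 (n = 3) in plasma cell-like cells. Its 5 highest classes, down to progenitor-like cells at 87.6 CPM ± 2.59 (n = 4), each overlapped the next in their library values. Rela, the main activating partner of that subunit, varied least from class to class, with 34.3 CPM ± 3.68 (n = 4) in T cell-like, 29.3 ± 1.11 (n = 3) in mast cell and basophil-like and 11.8 ± 0.733 (n = 3) in plasma cell-like cells.

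Rel, the subunit best known from lymphocytes, was highest in B cell-like cells at 83.7 CPM ± 14.3 (SD, n = 4), without overlap with the macrophage-like class at 39.0 ± 1.75. In mast cell and basophil-like cells it was 8.23 CPM ± 1.15 (n = 3). Nfkb2 and Relb, the subunits of the alternative NF-kB pathway, shared their order at the top. Nfkb2 stood at 39.7 CPM ± 3.79 in B cell-like, 28.9 ± 6.41 in macrophage-like and 20.5 ± 5.20 in T cell-like cells (SD, n = 4 each). Relb stood at 25.4 CPM ± 1.54, 24.6 ± 7.86 and 16.9 ± 3.03 in the same classes, and neighbours in both orders overlapped. Both genes were lowest in erythroid-like cells.

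Among the inhibitors, Nfkbia was highest in macrophage-like cells at 172 CPM ± 11.8 (SD, n = 4) and lowest among mast cell and basophil-like cells at 25.1 ± 7.58 (n = 3). Between them, B cell-like (148 CPM ± 18.2), neutrophil-like (122 ± 39.1) and T cell-like cells (111 ± 25.7) overlapped, whereas progenitor-like cells (51.0 ± 9.93, n = 4) stood apart from the classes on either side. Nfkbie was highest in B cell-like cells at 45.1 CPM ± 5.61, 2.27 times the macrophage-like mean of 19.8 ± 3.84 (n = 4 each) and without overlap. Nfkbiz, a nuclear inhibitor-like protein that also helps switch on secondary response genes, had its highest mean in macrophage-like cells, 62.2 CPM ± 13.5, and overlapped with the T cell-like class at 33.1 ± 13.4 (n = 4 each). Its mean in mast cell and basophil-like cells was 2.83 CPM ± 1.61 (n = 3), 22.0 times lower. Tnfaip3, an enzyme that edits ubiquitin chains and shuts the pathway down, was highest in T cell-like cells at 25.3 CPM ± 12.3 and overlapped with macrophage-like cells at 18.5 ± 2.10 (n = 4 each). For mast cell and basophil-like cells its SD of 14.5 CPM was nearly as large as its mean of 15.8 (n = 3).

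Tnf, the secreted cytokine, was highest in neutrophil-like (14.9 CPM ± 5.65), macrophage-like (14.1 ± 1.57) and B cell-like cells (11.1 ± 2.08), all overlapping (SD, n = 4 each). Mast cell and basophil-like cells had 4.36 CPM ± 1.12 (n = 3), and erythroid-like cells 0.338 ± 0.0351 (n = 3).

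**Figure D1:**
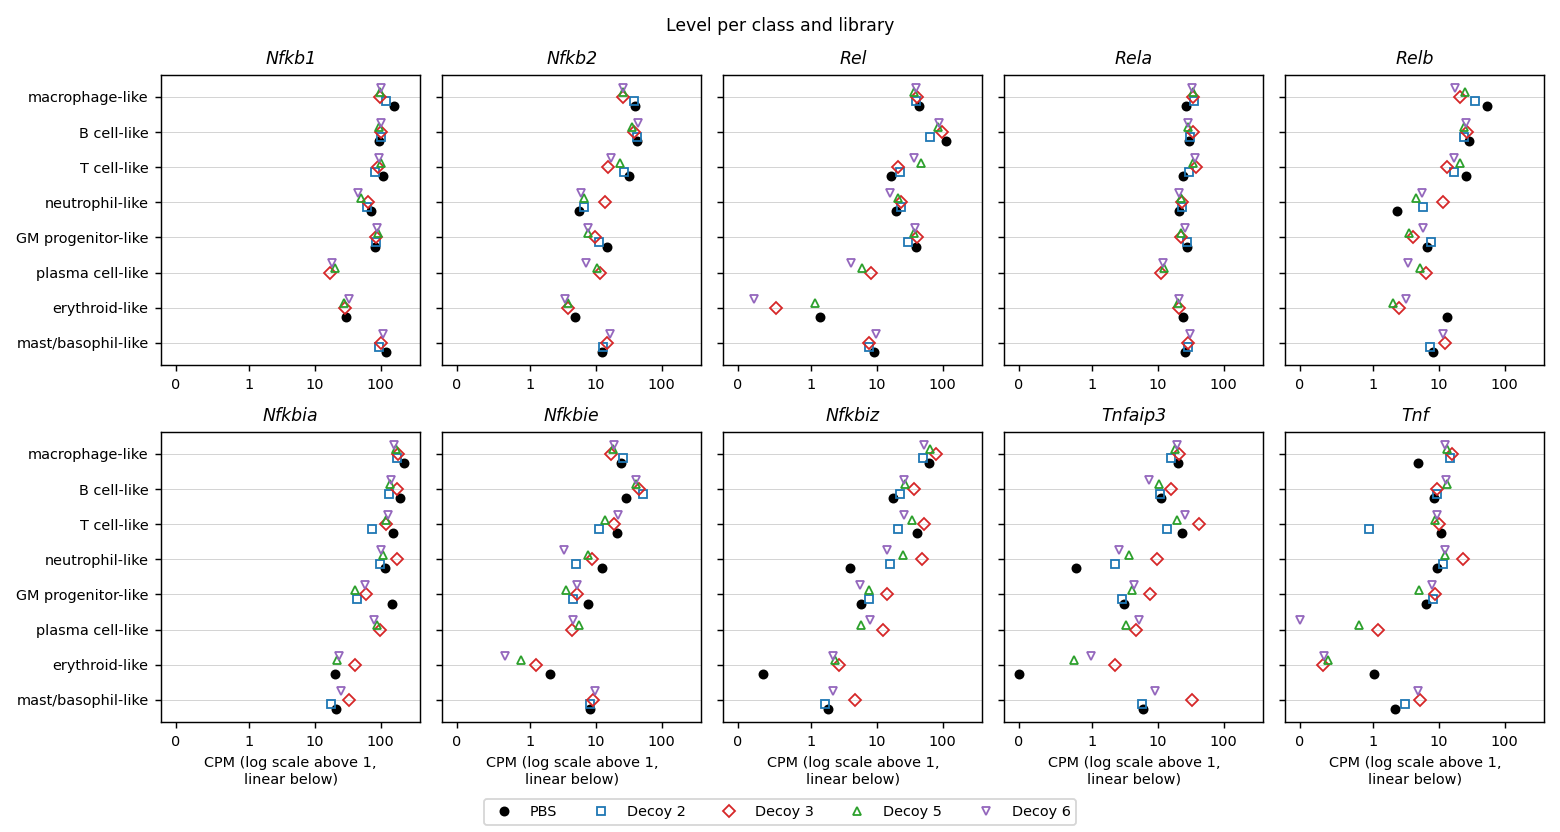
Level of each of the 10 genes by class and library, 1 panel per gene, with CPM (scaled by TMM) on a horizontal axis that is linear near 0 and logarithmic above it, and 1 point per library. Rel and Nfkbie lie highest in B cell-like cells, Nfkbia and Nfkbiz in macrophage-like cells, and the PBS point of Nfkbia in progenitor-like cells lies apart from the 4 Decoy points.

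Over all kept cells, Nfkb2, Rel, Nfkbia, Nfkbie, Nfkbiz and Tnf had higher levels in each of the 4 Decoy libraries than in PBS, and Nfkb1 a lower level in all 4, but no gene of the 10 was called. Nfkb1 stood at 125 CPM in PBS and at 94.4, 80.2, 69.0 and 91.2 CPM in Decoy 2, Decoy 3, Decoy 5 and Decoy 6. Rel stood at 9.90 CPM in PBS and at 9.99, 29.0, 31.2 and 21.1 CPM in the same libraries. For Rel, Decoy 2 was thus close to PBS, while the other 3 Decoy libraries lay above it. Rela varied little, with 27.3 CPM in PBS and 25.4 to 29.8 CPM in Decoy. Nfkb2 (13.1 CPM in PBS, 13.9 to 17.4 in Decoy) and Relb (8.91 CPM in PBS, 8.47 to 13.1 in Decoy) lay closer to their PBS levels than Rel did.

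Nfkbia stood at 24.5 CPM in PBS and at 25.6, 102, 91.6 and 65.2 CPM in Decoy 2, Decoy 3, Decoy 5 and Decoy 6. Nfkbiz had 2.18 CPM in PBS and 3.46, 33.1, 25.2 and 14.1 CPM in these libraries. For both inhibitors Decoy 2 was again the library nearest to PBS. Tnfaip3 had 6.05 CPM in PBS and 5.95, 17.5, 8.11 and 9.75 CPM in Decoy, and Nfkbie 8.74 CPM in PBS and 8.85 to 12.9 CPM in Decoy. For Tnf the level was 2.35 CPM in PBS and 3.79, 8.55, 7.27 and 6.57 CPM in Decoy, so the PBS library lay below each Decoy library.

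The log2 fold change, Decoy over PBS, was −0.58 ± 0.21 (SE) for Nfkb1, 1.20 ± 0.70 for Rel, 1.54 ± 0.84 for Nfkbia, 3.12 ± 1.44 for Nfkbiz and 1.48 ± 0.53 for Tnf. By edgeR's quasi-likelihood test 0 of the 10 genes were called (adjusted p from 0.465 to 0.893), and 2 had an unadjusted p under 0.05, Nfkb1 and Tnf. DESeq2 and limma voom also called 0 of the 10. Over all 16006 genes tested, edgeR called 0 (0%), with 1667 at an unadjusted p under 0.05, voom called 0 and DESeq2 2029. On simulated counts with the spread of these libraries, the edgeR test recovered 0 of 67 genes changed by a log2 fold of 2. PBS lay below every Decoy library for 6 of the 10 genes, where 34.3% of all genes did, and above every Decoy library for 1, where 31.2% did. Without Decoy 2, edgeR called 4 of the 10 with higher levels in Decoy, Tnf (adjusted p = 0.0283), Nfkbia (0.0358), Nfkbiz (0.0382) and Rel (0.0493). In that fit it also called 2474 of all 15936 genes (15.5%), 2336 of them higher in Decoy.

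The cells that supplied these transcripts differed between libraries. In PBS, 82.5% of Nfkbiz UMIs came from mast cell and basophil-like cells and 7.08% from macrophage-like cells. The macrophage-like share of Nfkbiz UMIs was 26.5% in Decoy 2 and 72.0%, 66.6% and 68.3% in Decoy 3, Decoy 5 and Decoy 6. For Nfkbia the macrophage-like part made up 2.30% in PBS and 12.6%, 53.5%, 47.6% and 44.0% across Decoy 2, Decoy 3, Decoy 5 and Decoy 6, and for Tnf it was 0.512% in PBS and 7.06%, 55.6%, 47.1% and 34.6%. Macrophage-like cells held 0.24% of all PBS UMIs, and 1.70%, 31.4%, 27.5% and 18.3% of those of the 4 Decoy libraries. Rel followed the B cell-like class as well, whose share of Rel UMIs was 2.65% in PBS and 5.35%, 29.6%, 39.3% and 22.3% in Decoy. Nfkb1 UMIs came mostly from mast cell and basophil-like cells in PBS (96.8%), Decoy 2 (87.7%) and Decoy 6 (55.9%), and to 26.5% in Decoy 3.

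**Figure D2:**
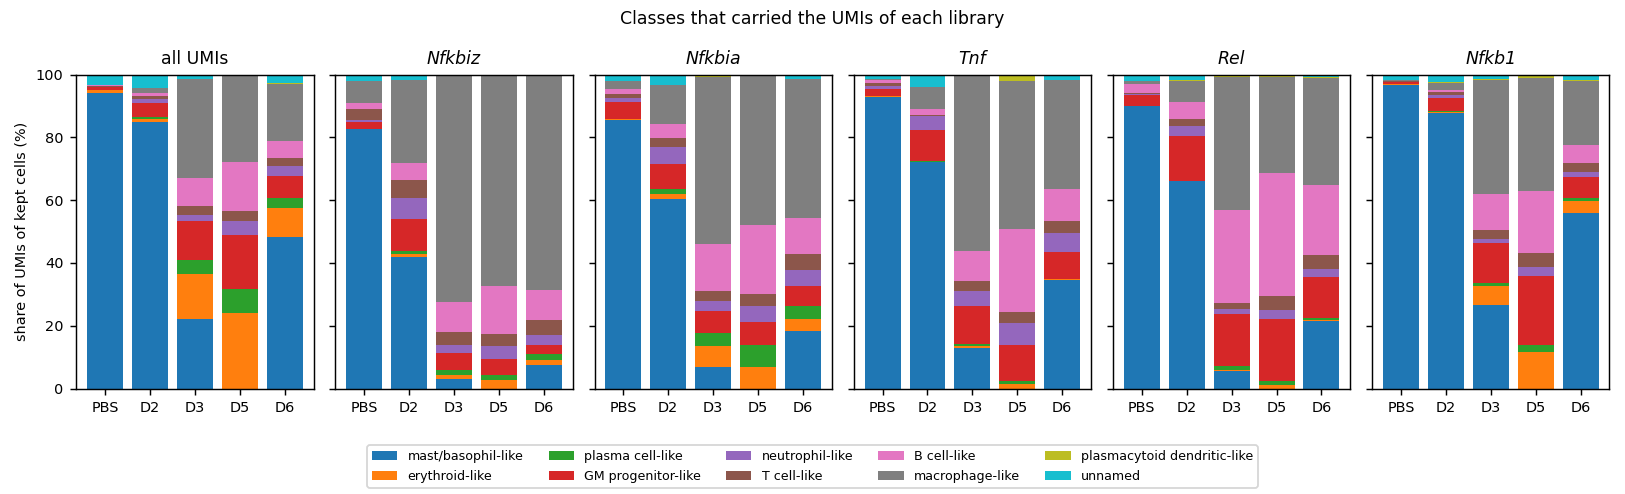
Share of UMIs (percent, vertical axis) that came from each class in each library (D2 to D6 are the Decoy libraries), for all UMIs and for Nfkbiz, Nfkbia, Tnf, Rel and Nfkb1. The macrophage-like part of the Nfkbiz bar is 7.08% in PBS and 66.6% to 72.0% in Decoy 3, Decoy 5 and Decoy 6.

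A comparison added after the data had been seen asked how far the levels over all cells follow these class shares. For each Decoy library, the level was computed that it would have if each of the 7 tested classes kept its PBS level and only the class shares differed. Both levels here are scaled by the library total, over the 7 classes, which held 92.1% to 96.8% of UMIs. For Nfkbia this gave 35.8, 131, 146 and 89.4 CPM in Decoy 2, Decoy 3, Decoy 5 and Decoy 6, against observed levels of 24.3, 109, 95.3 and 65.1 CPM. The observed Nfkbia level was thus 0.651 to 0.828 times the level computed from the class shares and PBS class levels, although it was above PBS in 3 of the 4 libraries. For Nfkbiz the ratio was 0.899 to 1.41, and for Rel 0.792 to 0.924.

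The observed level lay below the level with PBS class levels in every Decoy library for 6 of the 10 genes, where 22.9% of all genes did. These were Nfkb1 (ratio 0.748 to 0.806), Nfkb2 (0.687 to 0.964), Rel, Relb (0.518 to 0.830), Nfkbia and Nfkbie (0.875 to 0.948). It lay above in every Decoy library for 2, Rela (1.06 to 1.18) and Tnf (1.32 to 2.11), where 25.4% of all genes did. Tnfaip3 had ratios of 0.911 to 1.80, with the highest in Decoy 3. These ratios rest on 1 PBS library whose smaller classes held 64 to 589 cells, and they have no test. The erythroid-like and macrophage-like classes also held their clusters in different proportions in PBS and Decoy. A PBS class level there is thus not that of the same mix of cells, and the part of this in the ratios was not tested.

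**Figure D3:**
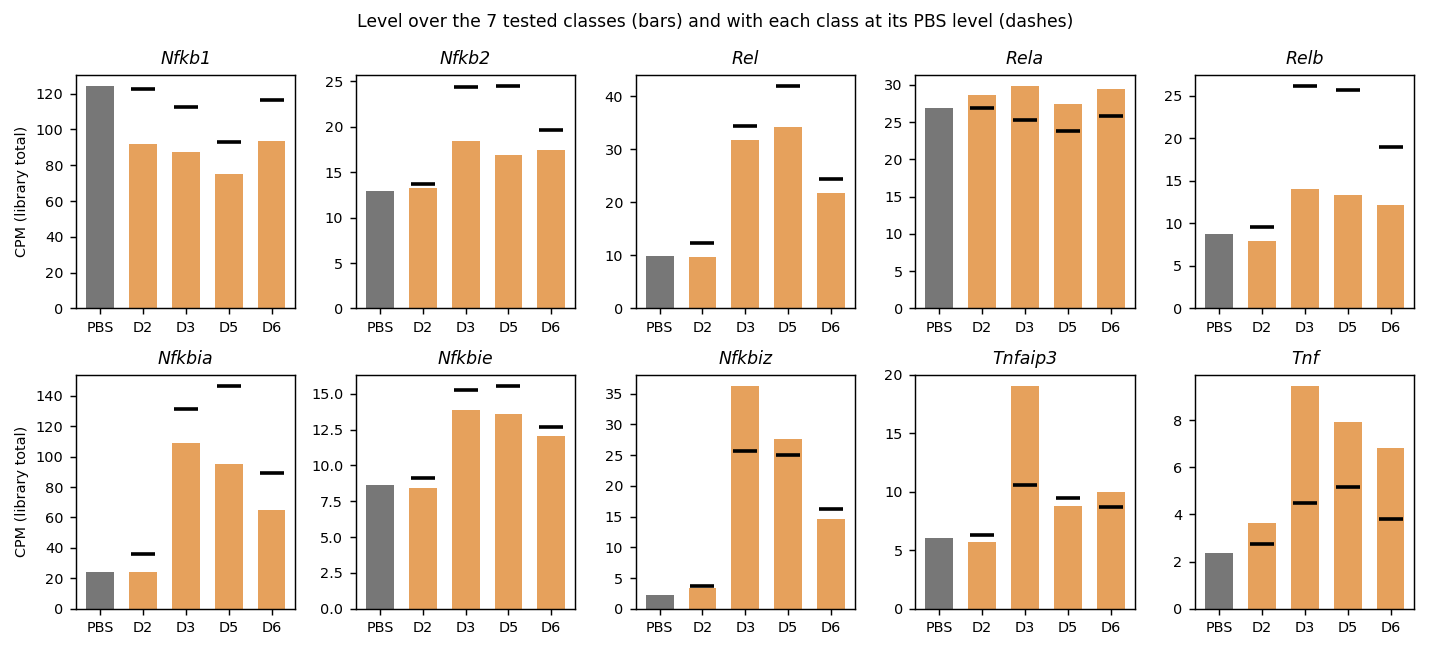
Level of each gene in each library over the 7 tested classes (bars, CPM of the library total, from 0), with a dash at the level that the library would have if each class stayed at its PBS level. For Nfkbia, bars and dashes are both higher in Decoy 3, Decoy 5 and Decoy 6 than in PBS, and each Decoy bar ends below its dash.

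Among mast cell and basophil-like cells, which held most PBS cells, no gene of the 10 was called, and Tnf and Tnfaip3 had the largest fold changes. Tnf stood at 2.18 CPM in PBS and at 3.1, 5.25 and 4.74 CPM in Decoy 2, Decoy 3 and Decoy 6, each Decoy library above PBS. Its log2 fold change was 0.94 ± 0.27 (SE, n = 3 Decoy libraries), with an edgeR adjusted p of 0.227. With Decoy 2 left out edgeR called it (adjusted p = 0.0145), in a fit where 320 of 12900 genes (2.48%) were called.

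Tnfaip3 stood at 5.84 CPM in PBS and at 5.73, 32.4 and 9.13 CPM in Decoy 2, Decoy 3 and Decoy 6. Decoy 3 was thus the library that set the Decoy mean. The log2 fold change was 1.27 ± 0.70 (SE, edgeR adjusted p = 0.664), and 0.31 without Decoy 3. In Decoy 3, 144 of 361 cells (39.9%) held a Tnfaip3 UMI, against 15.5% in PBS, 17.0% in Decoy 2 and 18.9% in Decoy 6, and no cell of Decoy 3 held more than 3.34% of the UMIs. After thinning each cell to 2000 UMIs, the share was 6.39% in Decoy 3 (95% exact interval 4.09% to 9.43%), 1.62% in PBS, 1.47% in Decoy 2 and 2.17% in Decoy 6. Decoy 3 was the highest library in each of the 4 clusters of the class, with 16.9 to 64.9 CPM by cluster, where PBS had 2.30 to 29.9 CPM (scaled by the total).

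The subunits differed little among mast cell and basophil-like cells. Nfkb1 stood at 121 CPM in PBS and at 93.7, 101 and 107 CPM in Decoy 2, Decoy 3 and Decoy 6, a log2 fold change of −0.27 ± 0.11 (SE, edgeR adjusted p = 0.488). Rela had 25.9 CPM in PBS and 28.4 to 30.6 CPM in Decoy, and Rel 8.90 CPM in PBS and 7.47 to 9.56 CPM in Decoy. Nfkbia had 21.0 CPM in PBS and 17.5, 32.7 and 25.1 CPM in Decoy, so the groups overlapped. Of the 10 genes, edgeR called 0 and 2 had an unadjusted p under 0.05 (Nfkb1 and Tnf). DESeq2 and voom called 0. Among all 14281 genes tested, edgeR called 84 (0.588%), and 1291 had an unadjusted p under 0.05. PBS lay below every Decoy library for 3 of the 10 genes (27.4% of all genes) and above for 1 (26.6% of all genes). Free RNA, transcripts of other cells that enter droplets, was estimated at a median of 0.238% to 0.589% of the level in other cells, and at that median could carry up to 6.44% of the level of any of the 10 genes in this class (Nfkbiz in Decoy 6). The estimate differed between the markers it was read from, and at the highest, 0.905% in Decoy 6, that Nfkbiz value was 11.2%. Free RNA of mast cell and basophil-like cells in the other classes was not estimated.

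In macrophage-like cells the cytokine Tnf had higher levels in each Decoy library, Nfkb1, Relb and Nfkbia lower levels, and none of the 10 was called. Tnf stood at 4.80 CPM in PBS, from only 6 UMIs (95% exact Poisson interval 1.76 to 10.5 CPM), and at 14.9, 16.0, 13.3 and 12.4 CPM in Decoy 2, Decoy 3, Decoy 5 and Decoy 6. Its log2 fold change was 1.55 ± 0.36 (SE, edgeR adjusted p = 0.0695), and it was called when no doublets were removed (2.09, adjusted p = 0.0416). Nfkb1 stood at 160 CPM in PBS and at 120, 98.0, 96.7 and 102 CPM in Decoy, a log2 fold change of −0.63 ± 0.15 (edgeR adjusted p = 0.0744). DESeq2 called it (adjusted p = 0.0126).

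Relb stood at 53.6 CPM in PBS and at 35.5, 20.8, 24.7 and 17.4 CPM in Decoy (log2 fold change −1.17 ± 0.41, edgeR adjusted p = 0.171), and Nfkb2 at 40.0 CPM in PBS and at 38.6, 25.7, 25.6 and 25.9 CPM. For both, Decoy 2 lay nearest to PBS. The inhibitor Nfkbia stood at 226 CPM in PBS and at 179, 184, 169 and 157 CPM in Decoy (−0.39 ± 0.12, edgeR adjusted p = 0.136). Without Decoy 2, edgeR called 3 of the 10, all lower in Decoy, namely Nfkb1 (adjusted p = 0.0134), Relb (0.0300) and Nfkb2 (0.0404). In that fit 1561 of 13337 genes (11.7%) were called, 613 of them lower in Decoy. Nfkbiz stood at 61.6 CPM in PBS and at 50.9, 80.1, 64.9 and 52.7 CPM in Decoy, so the groups overlapped, as they did for Tnfaip3.

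Of the 10 genes, edgeR called 0 in macrophage-like cells, and 4 had an unadjusted p under 0.05. DESeq2 called 1 and voom 0. Of all 13419 genes tested, 556 (4.14%) were called, and 2920 had an unadjusted p under 0.05 by edgeR. PBS lay below every Decoy library for 2 of the 10 (40.2% of all genes) and above for 5 (33.3% of all genes). The class came from 2 clusters in different proportions, and the part of this in the results was not tested. In PBS, 42 cells lay in cluster 4 (median 14576.5 UMIs) and 73 in cluster 9 (median 2326 UMIs), while most Decoy cells lay in cluster 4. Nfkb1, scaled by the total, was higher in PBS in each cluster, with 182 CPM against 94.7 to 126 in cluster 4 and 145 CPM against 74.8 to 89.9 in cluster 9. Relb did not keep that order in cluster 9, with 67.0 CPM in PBS and 50.7 to 191 CPM in Decoy. Cluster 9 had Batf3, a conventional dendritic marker, among its 10 leading genes. At a clustering resolution of 1.0 a conventional dendritic-like cluster was named, with 51 PBS cells and 28 to 103 cells per Decoy library. The macrophage-like cluster with few UMIs then held 33 PBS cells. Dendritic cells may thus lie in the class, and their part in the Relb and Nfkb2 levels was not tested. Marker sums also differed, with 3790 CPM of macrophage markers in PBS and 5470 to 7559 in Decoy, and 101 CPM of neutrophil markers in PBS and 3192 to 5032 in Decoy.

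In the granulocyte-monocyte progenitor-like class Nfkbia fell, and no other gene of the 10 was called there. It stood at 150 CPM in PBS (648 UMIs) and at 43.8, 60.3, 41.2 and 58.7 CPM in Decoy 2, Decoy 3, Decoy 5 and Decoy 6. All 4 Decoy libraries lay below PBS and nearer to each other than to PBS. The log2 fold change was −1.57 ± 0.20 (SE, n = 4 Decoy libraries, edgeR adjusted p = 0.0254). Of 11313 genes tested, 153 (1.35%) were called, 91 of them lower in Decoy (0.804%). edgeR no longer called it with Decoy 3 left out (adjusted p = 0.0632), with Decoy 5 left out (0.0545) and when no doublets were removed (0.0542), with log2 fold changes of −1.66, −1.46 and −1.36.

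More cells held an Nfkbia UMI in PBS, 92.0% against 57.1% to 76.8% in Decoy. After thinning to 2000 UMIs per cell the share with an Nfkbia UMI was 27.9% for PBS (95% exact interval 19.8% to 37.2%) and 8.63%, 17.6%, 8.89% and 14.9% in Decoy 2, Decoy 3, Decoy 5 and Decoy 6. The highest cell held 3.55% of the Nfkbia UMIs in PBS and up to 13% in Decoy. Neutrophil markers were also lower in each Decoy library than in PBS. Their sum was 25793 CPM in PBS and 19644, 8392, 7733 and 12315 CPM in Decoy. In PBS the neutrophil-like class had an Nfkbia level of 118 CPM, below the 150 CPM of the progenitor-like class. The mast cell and basophil-like class (21.0 CPM) and the erythroid-like class of PBS also lay below the progenitor-like level. The macrophage-like (226 CPM), B cell-like (196 CPM) and T cell-like (154 CPM) classes of PBS lay above the progenitor-like level. Whether cells of other classes contributed to the PBS progenitor-like level was not tested. Stem and progenitor markers summed to 323 CPM in PBS and 1123 to 1339 CPM in Decoy. The part of this shift in the Nfkbia result was not tested.

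Nfkb2 and Nfkbie lay lower in Decoy without a call in the progenitor-like class. Nfkb2 stood at 14.8 CPM in PBS and at 11.2, 9.61, 7.70 and 7.61 CPM in Decoy (log2 fold change −0.71 ± 0.26, edgeR adjusted p = 0.241), and Nfkbie at 7.66 CPM in PBS and 3.57 to 5.25 CPM in Decoy (−0.75 ± 0.31, edgeR adjusted p = 0.3). Both had PBS above every Decoy library, as 4 of the 10 did (29.1% of all genes). Nfkb1 had 81.7 CPM in PBS and 85.5 to 90.9 CPM in Decoy, the only gene of the 10 with PBS below every Decoy library here (27.9% of all genes).

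**Figure D4:**
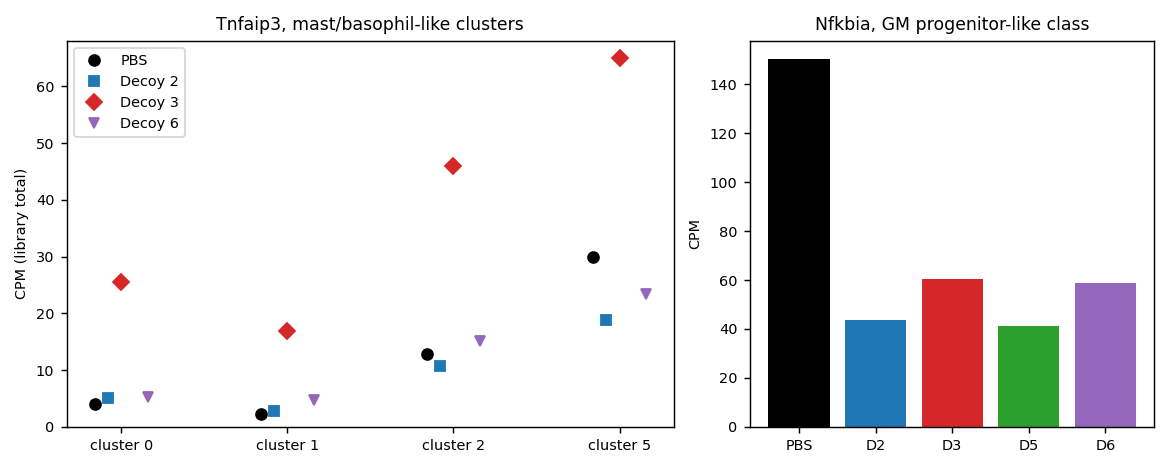
Tnfaip3 level (CPM of the total) in the 4 mast cell and basophil-like clusters by library, and Nfkbia level (CPM, scaled by TMM) in progenitor-like cells by library, bars from 0. Decoy 3 is highest for Tnfaip3 in each cluster, and PBS, at 150 CPM, is highest for Nfkbia.

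In B cell-like, T cell-like and neutrophil-like cells edgeR, DESeq2 and voom called none of the 10 genes, and 2, 0 and 1 of them had an unadjusted p under 0.05. edgeR called 5 of 11081 genes (0.0451%) in B cell-like, 0 of 10365 (0%) in T cell-like and 0 of 9490 (0%) in neutrophil-like cells. In these classes 1590, 1279 and 714 genes had an unadjusted p under 0.05 by edgeR, DESeq2 called 192, 100 and 47, and voom 20, 0 and 0. In B cell-like cells Nfkbie stood at 28.8 CPM in PBS and at 52.7, 45.8, 40.5 and 41.3 CPM in Decoy (log2 fold change 0.63 ± 0.22, edgeR adjusted p = 0.279). Nfkbia stood there at 196 CPM in PBS and at 135, 175, 138 and 142 CPM in Decoy (−0.41 ± 0.17, edgeR adjusted p = 0.334). In both cases PBS lay outside the Decoy range, and the differences were not called. At a clustering resolution of 1.0 the log2 fold change of Nfkbia in B cell-like cells had the opposite sign, 0.54 (edgeR adjusted p = 0.242). The class then held a cluster with 187 PBS cells and another with 54, against a single cluster with 200 PBS cells at resolution 0.5. The part of this in the change of sign was not tested. Among B cell-like cells PBS lay below every Decoy library for 3 of the 10 genes (31.3% of all genes) and above for 3 (31.2%).

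Neutrophil-like cells of PBS numbered 64, and held 5 Nfkbiz UMIs (3.91 CPM), 3 of Relb and 1 of Tnfaip3. Nfkbiz stood at 15.8, 48.6, 25.3 and 14.1 CPM in Decoy 2, Decoy 3, Decoy 5 and Decoy 6 (log2 fold change 2.62 ± 1.00, edgeR adjusted p = 0.617). All 4 values lay above PBS, with Decoy 3 apart from the rest. Here PBS lay below every Decoy library for 5 of the 10 genes (26.9% of all genes) and above for 2 (27.1%). In T cell-like cells 3 of the 10 genes had log2 fold changes above zero, and the median was −0.334, against 0.0026 over all genes. There Rela had 24.0 CPM in PBS and 29.3 to 37.6 CPM in Decoy, while Nfkbia had 154 CPM in PBS and 73.3 to 130 CPM in Decoy. PBS lay below every Decoy library for 2 of the 10 genes (29.5% of all genes) and above for 5 (28.4%).

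In erythroid-like cells Relb fell and Nfkbiz rose, in a class where 4686 of 10598 genes (44.2%) were called. Decoy 2 had 31 such cells and was left out, so n = 3 Decoy libraries. Relb stood at 13.2 CPM in PBS (39 UMIs) and at 2.47, 2.01 and 3.18 CPM in Decoy 3, Decoy 5 and Decoy 6 (log2 fold change −2.42 ± 0.32, edgeR adjusted p = 0.000798). Nfkbiz had 1 UMI in PBS (0.339 CPM) and 2.68, 2.31 and 2.19 CPM in Decoy (edgeR adjusted p = 0.0262), a ratio of 7.06 with a counting interval of 1.27 to 279. DESeq2 (adjusted p = 0.203) and voom (0.182) did not call Nfkbiz, nor did edgeR with Decoy 3 left out (0.0526).

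PBS and Decoy erythroid-like cells came from different clusters. In PBS, 549 of 589 cells lay in a cluster led by haemoglobin genes, and erythroid markers summed to 434286 CPM in PBS and 13759 to 26675 CPM in Decoy. In the cluster that held most Decoy cells, Relb stood at 3.70 CPM in PBS (5 UMIs) and 2.48 to 3.77 CPM in Decoy, with a log2 fold change of −0.26 (edgeR adjusted p = 0.855), so the Relb call was absent there. Of all 10850 genes tested in that cluster, edgeR called 349 (3.22%). Tnfaip3 had 0 UMIs in the PBS erythroid-like cells, which allows up to 1.02 CPM (3 UMIs), and 2.27, 0.755 and 0.986 CPM in Decoy. Nfkb1 had 29.8 CPM in PBS and 28.0 to 33.0 CPM in Decoy, and the groups overlapped. PBS lay below every Decoy library for 3 of the 9 genes tested (44.8% of all genes) and above for 5 (41.6%).

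**Figure D5:**
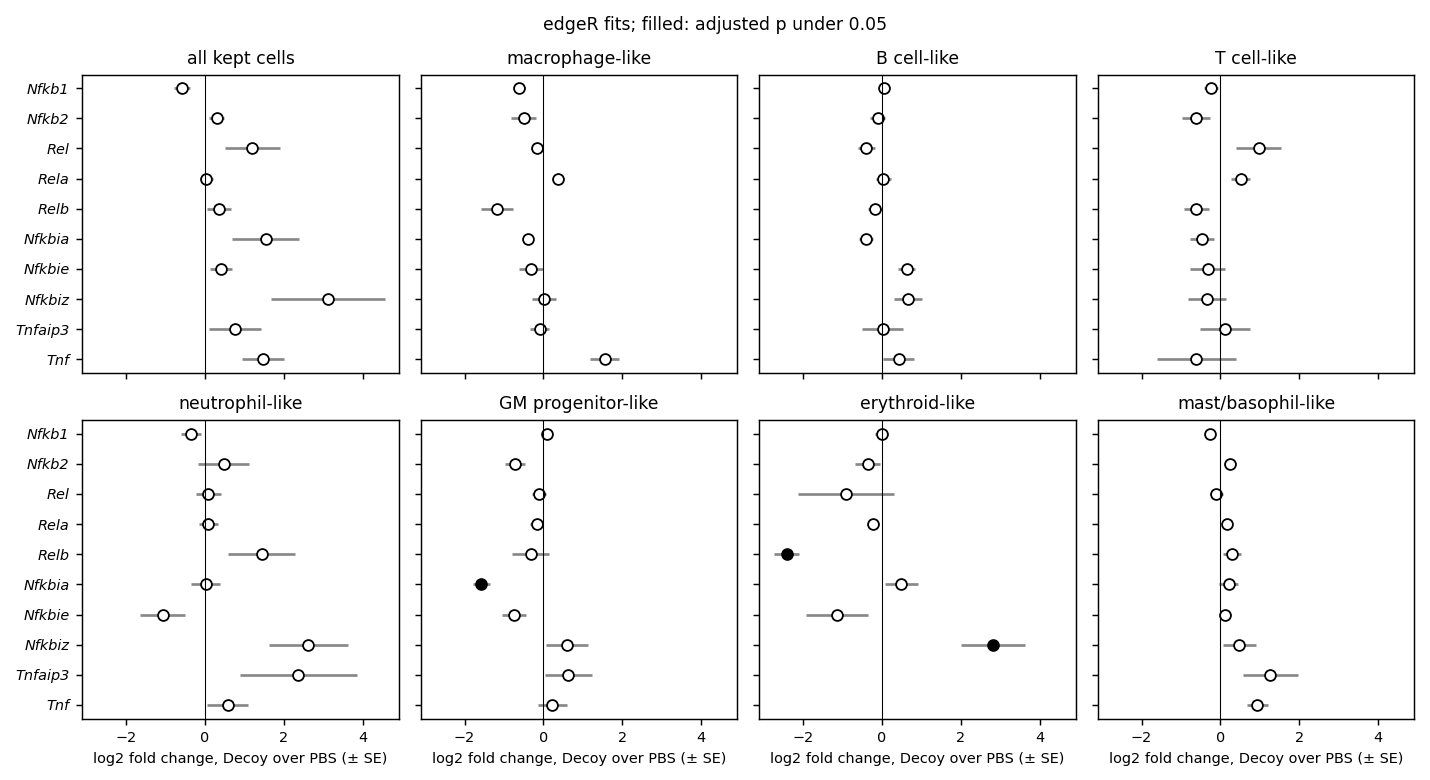
Log2 fold change, Decoy over PBS, of each gene over all kept cells and in the 7 tested classes, with bars of 1 SE; filled points are called (edgeR adjusted p under 0.05). Filled points appear for Nfkbia in progenitor-like cells and for Relb and Nfkbiz in erythroid-like cells.

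Whether the treatment difference itself differed between classes was tested with limma on the difference of 2 classes within each library. Relb differed between mast cell and basophil-like and erythroid-like cells, with a log2 difference (first minus second class) of 2.66 ± 0.25 (SE, adjusted p = 0.0244, n = 2 Decoy libraries), where 25.5% of 10403 genes differed. For mast cell and basophil-like cells against the B cell-like, T cell-like, macrophage-like, neutrophil-like and progenitor-like classes limma called 0 of the 10 genes and 0 genes in all (0%), with 0, 1, 0, 1 and 2 of the 10 at an unadjusted p under 0.05. The fall of Nfkbia in progenitor-like cells was therefore not shown to differ from its change among mast cell and basophil-like cells (limma adjusted p of the difference 0.433). Among 15 further class pairs, added after the data had been seen, limma called 15 of 145 gene tests, all in the 5 pairs with the erythroid-like class, and 46 tests had an unadjusted p under 0.05. In those 5 pairs many other genes differed too, 30.4% of genes against B cell-like, 29.1% against progenitor-like, 49.8% against macrophage-like, 11.1% against neutrophil-like and 23.9% against T cell-like cells. In the other 10 pairs limma called 0 of the 10 genes. Of all genes, it called 0.106%, 6.19%, 0% and 0.566% for B cell-like against progenitor-like, macrophage-like, neutrophil-like and T cell-like cells. It called 7.76%, 0% and 0% for progenitor-like against macrophage-like, neutrophil-like and T cell-like cells. For macrophage-like against neutrophil-like and T cell-like cells it called 0.255% and 2.36%, and for neutrophil-like against T cell-like cells 0.0112%.

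Decoy 3 stood apart for part of the group. In all 7 tested classes it was the highest Decoy library for Nfkbiz and Tnfaip3, 2 of the 9 genes tested in every class, where 44 of 8548 genes (0.515%) were. For Nfkbia it was the highest in 6 of the 7 classes, and the median over the 9 genes was 3. Decoy 3 was also highest in all 7 classes for Fosb, Jun, Dusp1 and Klf6, 4 of the 10 immediate early and handling response genes tested, and for Zfp36, whose product destabilises Tnf messenger RNA. The summed level of the immediate early and handling response list was 847 CPM in mast cell and basophil-like cells of Decoy 3, against 257 CPM in PBS, 295 in Decoy 2 and 307 in Decoy 6. In macrophage-like cells the sum was 907 CPM in Decoy 3, 542 in PBS and 552 to 638 in the other Decoy libraries, and in erythroid-like cells 407 CPM in Decoy 3 and 214 to 227 CPM in the other libraries. Its part in the Nfkbiz and Tnfaip3 levels was not tested.

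The other genes of the pathway were described by lists. Over all kept cells edgeR called none of them in any list. The classical activation list, the kinases and adaptors upstream of NF-kB, had 20 genes with a median log2 fold change of 0.04, against 0.01 over all genes. The 10 alternative activation genes had a median of 1.81, the 14 other inhibitors and feedback genes 0.79, the 5 genes of the TNF axis 3.32 and the 20 textbook targets 4.03. The 12 immediate early and handling response genes had a median of 1.62. Within the 7 tested classes the target medians ran from −0.05 (erythroid-like) to 1.04 (mast cell and basophil-like). Over all kept cells the class shares differed between libraries as well, and the lists were not recomputed with classes held at their PBS levels. Ccl5, a chemokine among the targets, stood at 6.80 CPM in PBS and at 71.6, 608, 613 and 610 CPM in Decoy 2, Decoy 3, Decoy 5 and Decoy 6 (6.13 ± 1.72, edgeR adjusted p = 0.465). Sod2, a mitochondrial superoxide dismutase, stood at 138 CPM in PBS and 147 to 193 CPM in Decoy, and Btk, a kinase of the classical list, at 103 CPM in PBS and 50.3 to 114 CPM in Decoy. Of the other inhibitors, Tax1bp1, a partner of the Tnfaip3 protein, stood at 132 CPM in PBS and 123 to 278 CPM in Decoy, and Otulin, which removes linear ubiquitin chains, at 42.4 CPM in PBS and 55.2 to 67.1 CPM in Decoy. Zfp36 stood at 4.54 CPM in PBS and at 9.45, 77.5, 61.3 and 33.8 CPM in Decoy.

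Within macrophage-like cells the lists held called genes, while the 10 genes did not. Of 20 textbook targets, 4 rose and none fell, in a class where 291 of 13419 genes (2.17%) rose. These were Ccl5, with 195 CPM in PBS and a log2 fold change of 3.00 ± 0.36 (edgeR adjusted p = 0.0232), Sod2 (165 CPM in PBS, 323 to 385 in Decoy), Ccl2 (8.0 CPM in PBS, 20.9 to 22.2 in Decoy) and Ccl4 (17.6 CPM in PBS, 82.1 to 136 in Decoy). Tnfrsf1b, a TNF receptor, rose from 36.8 CPM in PBS to 69.9 to 82.7 CPM in Decoy (log2 fold change 1.03 ± 0.16, edgeR adjusted p = 0.0349). Ltb, a cytokine of the alternative pathway, rose from 16.8 CPM to 32.5 to 36.8 CPM (1.07 ± 0.18, edgeR adjusted p = 0.0374). These 6 calls depended on single libraries, in a check chosen once the values were known. All 6 were called without Decoy 2, none without Decoy 3 and only Ccl5 without Decoy 5 or without Decoy 6, where edgeR called 12, 90 and 79 genes in all. In the cluster that held most Decoy cells edgeR called none of the 6 and 0 of 13022 genes, with 1768 at an unadjusted p under 0.05. DESeq2 called 4 of the 6 and voom 2. The median log2 fold change over the 20 targets was 0.46 and over the 10 genes −0.24, against 0.01 for all genes tested in the class. The 12 immediate early and handling response genes had a median of 0.58 there, with 9 above zero, and the part of handling in the target values was not tested.

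In mast cell and basophil-like cells Ccl5 was the only called gene of these lists, with 0.691 CPM in PBS and 2.51, 4.25 and 5.07 CPM in Decoy 2, Decoy 3 and Decoy 6 (log2 fold change 2.47 ± 0.37, edgeR adjusted p = 0.0216). It was not called when free RNA was taken out (adjusted p = 0.0808). The medians of the 18 targets tested and of the 10 genes were 1.04 and 0.23. The 12 immediate early and handling response genes had a median of 1.10 in these cells, all above zero and 10 of them with PBS below every Decoy library, and the part of handling in the target values was not tested. In progenitor-like cells Junb, an immediate early transcription factor, fell along with Nfkbia, from 153 CPM in PBS to 75.5 to 90.8 CPM in Decoy (−0.89 ± 0.12, edgeR adjusted p = 0.0254). Tlr2, a Toll-like receptor and target gene, fell there from 29.0 CPM to 11.6 to 15.5 CPM (−1.13 ± 0.18, edgeR adjusted p = 0.0420). Neither was called without Decoy 3, without Decoy 5 or without Decoy 6. Their lists did not fall with them. Of the 12 immediate early and handling response genes, 8 had log2 fold changes above zero, with a median of 0.84, and the 18 targets tested had a median of 0.24. In erythroid-like cells, whose PBS and Decoy cells came from different clusters and where 44.2% of all genes were called, 8 of 19 classical activation genes tested fell and 1 rose. Of 11 other inhibitors tested 4 fell, while 7 had log2 fold changes above zero and the median was 0.28. In the cluster that held most Decoy cells, 0 of the 26 genes of all lists called in this class were called, where edgeR called 3.22% of all genes.

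Across 36 profiles of a class in a library (8 classes), the genes of the group varied together in part. Nfkb2 had its highest Pearson correlations of log2 CPM with Nfkbie (0.909) and Relb (0.906) among 5370 genes, and Apc (0.901) came next. Nfkbiz and Nfkbia correlated at 0.885, with Nfkbiz still closer to Ptk2b (0.928) and Clec2d (0.890). Rel was most like Birc3 (0.941), Tnfaip8 (0.935) and Arhgap30 (0.932). Nfkb1 was most like Brk1 (0.934), Rela most like B230219D22Rik (0.916), Nfkbia most like Ssh2 (0.911), Tnfaip3 most like Itgav (0.872) and Tnf most like Arhgap4 (0.872). The profiles of 1 library share its depth and handling and those of 1 class its cell type, so these values are a description without a test.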

How the data were processed

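The authors deposited counts (raw whole-number UMIs for each gene in each cell barcode). The headers of the matrices give Cell Ranger 5.0.0, and the submitters' processing notes listed Cell Ranger 3.1, Seurat 4, DESeq2 and the mm10 build; which step used which version is not given in the sources used here. Of the 32285 genes, 32235 (99.8%) were found by identifier in GENCODE vM21.

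Cells were kept with 500 or more genes, 1000 or more UMIs and no more than 10% mitochondrial UMIs. Library totals ran from 56490098 UMIs (Decoy 3) to 579333323 (PBS). Doublets were scored with scrublet in scanpy 1.11.5. The threshold marked 0% to 0.412% of barcodes in Decoy libraries, against expected rates of 1.96% to 5.49%, so doublets were not separated there. It marked 6.88% of PBS barcodes, against an expected 15.5%, so doublets may remain in PBS too. Leiden clusters (leidenalg 0.10.2, resolution 0.5) were named from 16 marker lists, with at least 3 markers found in 10% of cells at 2-fold or more; clusters with mean profiles correlating at 0.85 or above were joined. Python was 3.11.15.

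UMIs were summed per library and class, for classes of 50 or more cells in PBS and 3 or more Decoy libraries. After filterByExpr and TMM scaling, genes were tested two-sided with edgeR 4.0.16 in R 4.3.3; DESeq2 1.42.0 and limma 3.58.1 were alternatives. Class differences used limma with a prior count of 2. Intervals of shares are 95% Clopper-Pearson intervals, and these and Poisson intervals cover counting error only. The edgeR script was tested on simulated data: for mast cell and basophil-like cells (14281 genes) it recovered 43 of 69, 66 of 74 and 54 of 57 genes changed by a log2 fold of 1, 2 and 3, and over all kept cells (16006 genes) 0 of 62, 0 of 67 and 3 of 71. These simulations, at the estimated spread, also gave 28 false calls among unchanged genes for mast cell and basophil-like cells and 2 over all kept cells. An exact permutation of the single PBS library cannot give a p below 0.2.

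The genes, lists and tests were chosen with earlier results of these data known. All 10 genes are named whatever their result. Of each pathway list, up to 4 called genes per fit were named by smallest adjusted p, or the 2 with the highest mean CPM where none was called, and for likeness the 3 most correlated genes with at least 50 CPM in 1 profile; some of these were left out for length. Alternatives were other scaling, filters, tests, doublet and mitochondrial limits, clustering resolutions, the largest cluster of a class, free RNA removal and leaving out each Decoy library.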

Additional observations from a re-analysis of the deposited data

Results flagged for a closer look

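In groups of 4 Decoy libraries, 7 of 60 had a library whose gap to the others was above Dixon's critical value, where chance would flag about 1 in 20, or 3. In neutrophil-like cells Decoy 3 stood above the others for Nfkbia (180 CPM, the others 97.9 to 108), Nfkb2 (13.6, the others 5.93 to 6.63), Relb (11.7, the others 4.56 to 5.69) and Tnf (23.3, the others 11.7 to 12.2). In B cell-like cells Decoy 3 had 175 CPM of Nfkbia, the others 135 to 142. In macrophage-like cells Decoy 2 had 38.6 CPM of Nfkb2, the others 25.6 to 25.9. In T cell-like cells Tnf was 0.946 CPM in Decoy 2, from 2 UMIs, and 8.66 to 9.90 CPM in the others.

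The treatment difference of the erythroid-like class differed from that of other classes by the limma test, in a class whose PBS and Decoy cells came from different clusters. For Relb the log2 difference of the mast cell and basophil-like minus the erythroid-like class was 2.66 (adjusted p = 0.0244). The remaining pairs were chosen once the values were known. For B cell-like minus erythroid-like cells limma gave 2.19 for Relb (adjusted p = 0.0141), 1.63 for Nfkbie (0.0274), −1.58 for Nfkbiz (0.0131) and −3.0 for Tnfaip3 (0.0157), where 30.4% of genes differed. For erythroid-like minus progenitor-like cells limma gave −1.80 for Relb (adjusted p = 0.00576), 1.91 for Nfkbia (0.0254) and 2.23 for Tnfaip3 (0.00970), where 29.1% of genes differed. For erythroid-like minus macrophage-like cells limma gave 0.717 for Nfkb1 (adjusted p = 0.0225), −0.556 for Rela (0.0280), 2.26 for Nfkbiz (0.00448) and 3.05 for Tnfaip3 (0.0196), where 49.8% of genes differed. For erythroid-like minus neutrophil-like cells limma gave −3.56 for Relb (adjusted p = 0.0331), where 11.1% of genes differed. For erythroid-like minus T cell-like cells limma gave −0.817 for Rela (adjusted p = 0.0483), 2.50 for Nfkbiz (0.0177) and 2.71 for Tnfaip3 (0.00995), where 23.9% of genes differed. PBS erythroid-like cells held 1 Nfkbiz UMI and 0 Tnfaip3 UMIs, so those differences depend on the prior count of 2.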

How the results depend on the processing

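The 32 fold changes were recomputed under the alternatives, which gave 402 values. Of these, 372 kept their direction and their side of the threshold, 13 gained a call, 11 lost it and 6 changed sign. Most of the 372 belong to fold changes not called in the main fits. The 11 lost calls all belong to Nfkbia in progenitor-like cells and Relb and Nfkbiz in erythroid-like cells, the only ones called there. Leaving out each Decoy library in turn gave 0 to 4 calls among the 10 genes over all kept cells (4 without Decoy 2). It gave 1 to 2 in erythroid-like cells (1 without Decoy 3) and 0 to 1 in progenitor-like cells (0 without Decoy 3 and without Decoy 5). For macrophage-like cells it gave 0 to 3 (3 without Decoy 2), and for mast cell and basophil-like cells 0 to 1 (1 without Decoy 2 and 1 without Decoy 6). Of all genes, these fits called 0% to 15.5% over all kept cells, 39.1% to 46.9% in erythroid-like and 0.105% to 4.52% in progenitor-like cells. They called 0.0955% to 11.7% in macrophage-like and 0.507% to 2.48% in mast cell and basophil-like cells. Erythroid-like cells had 1 call instead of 2 under DESeq2, under voom, with doublets removed at the expected rate and with no doublets removed. In those fits, in that order, 31.1%, 35.1%, 47.3% and 44.6% of all genes were called. At a clustering resolution of 1.0 and in the cluster that held most Decoy cells, erythroid-like cells had 0 calls. Of all genes, edgeR called 0.0588% at that resolution and 3.22% in that cluster. At that resolution the class also held a cluster with 589 PBS cells and 299 Decoy 2 cells. With no doublets removed, progenitor-like cells had 0 calls and macrophage-like cells 1. Macrophage-like cells also had 1 under DESeq2 and 1 at a mitochondrial share of at most 5%, where Nfkbia was called (−0.54, edgeR adjusted p = 0.0497). Of all genes in macrophage-like cells, 5.63% were called with no doublets removed, 6.73% under DESeq2 and 6.22% at that mitochondrial share. Mast cell and basophil-like cells had 2 with no low-count filter. Calls of that fit and of the fit without Decoy 6 are not relied on, since edgeR took each gene's spread wholly from the fitted trend in both and its smallest adjusted p was 0 and 1.9e-290, while Tnfaip3, called in both, was below PBS in Decoy 2. With a prior count of 0.5 limma called 2 genes for the mast cell and basophil-like against the erythroid-like class. Signs that changed were small, except for Nfkbia in B cell-like cells at a resolution of 1.0 (0.54); they were Rela over all kept cells with no filter (−0.034) and in fits leaving out 1 library (−0.0216 without Decoy 2 to 0.0847 without Decoy 5, with −0.0038 without Decoy 6), Rel in mast cell and basophil-like cells at 5% mitochondrial share (0.0174) and Nfkbiz in the largest cluster of that class (−0.0108). The causes were not tested. At a resolution of 0.3 the progenitor-like and macrophage-like classes were not named and gave no value. No paired analysis was possible because PBS has a single library. PBS classes other than the mast cell and basophil-like held few cells, so members with under 10 UMIs there have wide counting intervals.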
